A study of Mus musculus with 24 samples.

Results

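The epithelial sodium channel (ENaC) lets sodium leave the urine across the apical membrane of the distal nephron, and 10 genes of the channel and of its proteolytic activation were followed here over the day in 2 adjoining tubule segments. The genes were the 3 channel subunits Scnn1a, Scnn1b and Scnn1g, the proteases Furin, Prss8, St14, Tmprss2 and Klk1, and the protease inhibitors Spint1 and Spint2. They were chosen by name, out of 18194 genes measured, and all 10 were on the array. Of 34958 probe sets that name 1 gene symbol, 17 name one of these genes, and the brightest one on average stands for its gene. Both segments came from left kidneys of male C57BL/6J mice on standard chow, on a cycle of 12 h light and 12 h dark. The first was the distal convoluted tubule with the connecting tubule (DCT/CNT) and the second was the cortical collecting duct (CCD), both dissected by hand after collagenase. Mice were killed every 4 h, at 0, 4, 8, 12, 16 and 20 h of zeitgeber time (ZT), where ZT0 is lights on and ZT12 is lights off. Each segment and time had 2 arrays, each from a pool of RNA, with 5 animals per time, which gave 12 groups and 24 arrays.

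ENaC is a channel of homologous subunits whose open probability depends on proteolysis. In the secretory pathway the convertase furin cuts the alpha subunit and the gamma subunit, and a second cut of gamma at the cell surface, by prostasin (Prss8), tissue kallikrein (Klk1) or other serine proteases, releases an inhibitory stretch. Matriptase (St14) activates prostasin in other epithelia, and the Kunitz-type inhibitors HAI-1 (Spint1) and HAI-2 (Spint2) block both enzymes. In the kidney the channel is set by aldosterone, and alpha subunit transcription is a known aldosterone response.

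Values are RMA values on the log2 scale, so a difference of 1 is a doubling of signal. The pools carried the markers of their segments: the sodium chloride cotransporter gene Slc12a3 averaged 10.77 ± 1.24 in DCT/CNT and 5.28 ± 0.48 in CCD, the connecting tubule gene Calb1 averaged 12.56 ± 0.14 in DCT/CNT and 11.81 ± 0.19 in CCD, and the principal cell gene Aqp2 averaged 7.95 ± 0.15 in DCT/CNT and 10.25 ± 0.20 in CCD (SD, n = 12 arrays each). All 6 DCT and 3 CNT markers measured were higher in DCT/CNT, and all 7 principal cell markers were lower there as deposited. Under each other scaling described below 5 of the 7 principal cell markers were called lower. After equal medians and after cyclic loess scaling 1 of the 7 was called higher in DCT/CNT and 1 was not called. After quantile scaling 2 of the 7 were not called. Both segments also carried signal of neighbouring segments: the mean of 14 proximal tubule markers ranged from 7.47 to 8.82 over DCT/CNT arrays and from 7.54 to 9.14 over CCD arrays, and that of 6 thick ascending limb markers from 6.80 to 8.0 in DCT/CNT and from 5.95 to 7.53 in CCD. In such pooled tubules fewer cells of a type and less RNA per cell cannot be told apart. Over all probe sets, array medians lay between 5.8 and 5.89, and the interquartile range was 3.32 to 3.65 on DCT/CNT arrays and 4.08 to 4.28 on CCD arrays. Over the brightest probe set of each gene, array medians were 6.63 to 6.78 in DCT/CNT and 6.86 to 6.97 in CCD. The median of all genes' differences, DCT/CNT minus CCD, was -0.13, and segment differences of the members are also given relative to this median gene.

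**Figure D1:**
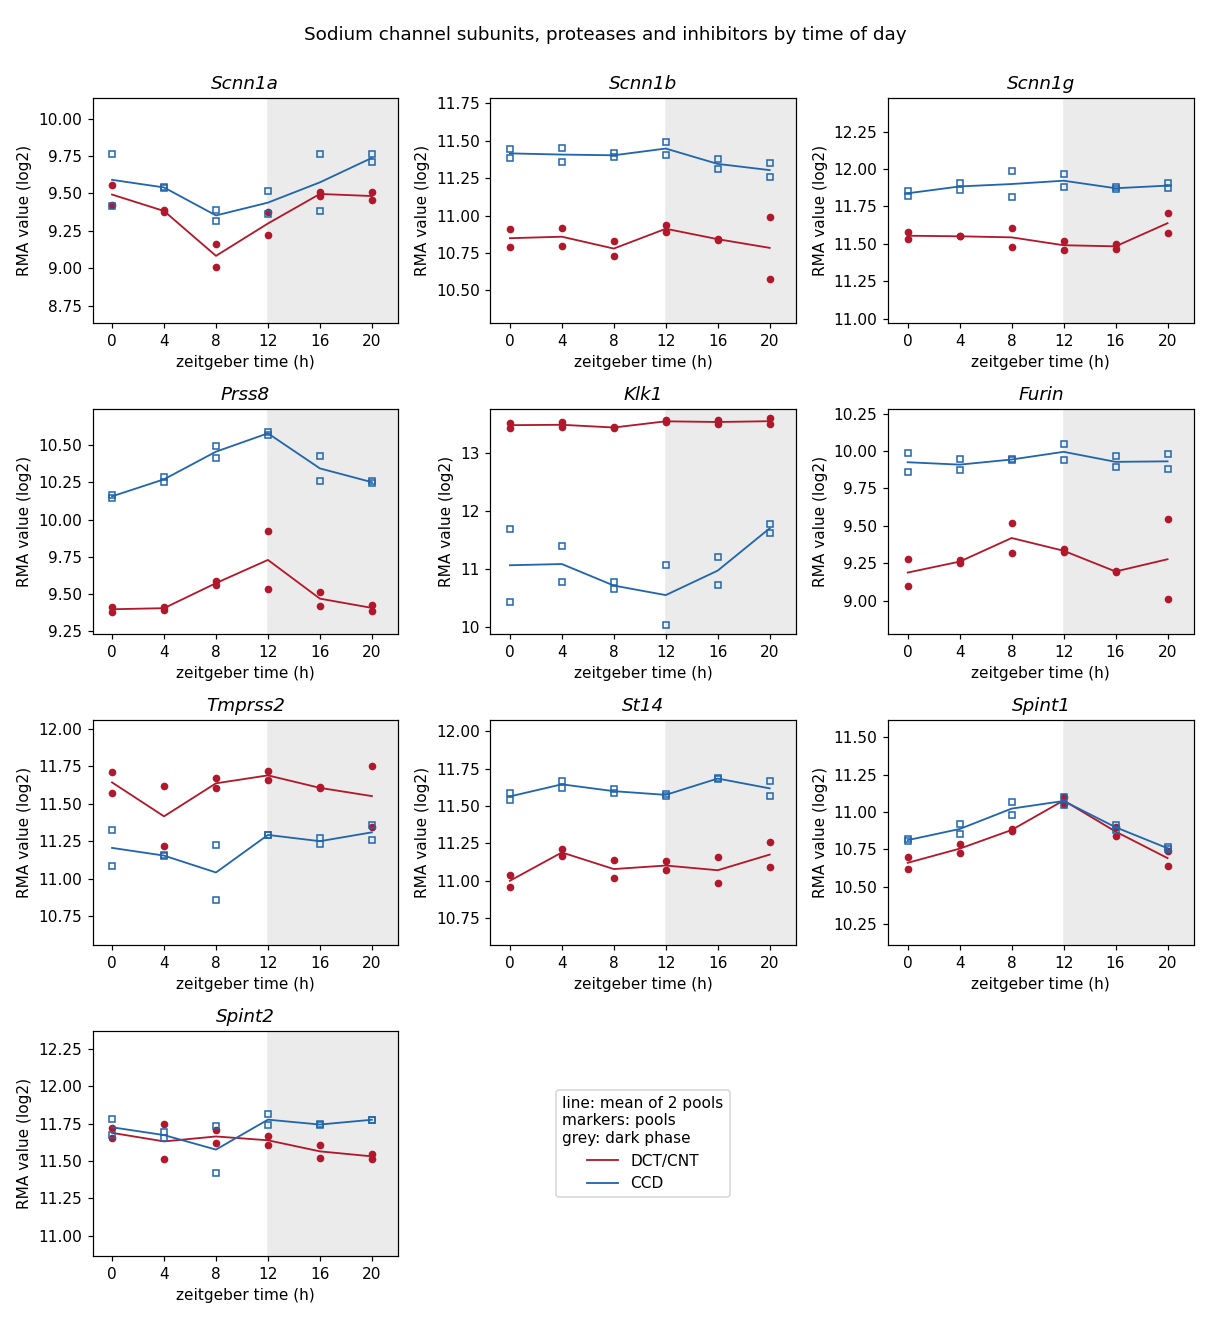
RMA value (log2, vertical axis) of the brightest probe set of each of the 10 genes against zeitgeber time (h), with DCT/CNT as filled red circles and CCD as open blue squares for the 2 pools of each group, and lines through the pool means. Spint1 and Prss8 are highest at ZT12 in both segments, Klk1 lies near 13.5 in every DCT/CNT pool and scatters between 10.03 and 11.78 in CCD.

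Over the day, the inhibitor gene Spint1 was called rhythmic in both segments and the protease gene Prss8 in CCD, both with a maximum near lights off. Rhythm was tested with a 24 h cosine curve fitted to both segments together in limma, with adjusted p over all genes called under 0.05. By this test 1195 of 18194 genes (6.57%) were rhythmic in DCT/CNT and 449 (2.47%) in CCD. Of the 10 genes, 1 was called in DCT/CNT and 2 in CCD, so the share of the small list cannot be set apart from these backgrounds. Both CCD calls were lost in every omission of 1 time. An F test over group means, which fits no curve, called 0 of the 10 genes in either segment. The median amplitude, which is the height of the fitted curve above its own mean, was 0.06 for the 10 genes and 0.13 for all genes in DCT/CNT, and 0.09 for the 10 genes and 0.10 for all genes in CCD. The difference in rhythm between the segments was called for 2 genes of all (0.0110%) and for none of the 10 by limma. None of the 10 reached an unadjusted p under 0.05 for that difference, against 1617 genes of all.

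Between the segments, most of the 10 genes read lower in DCT/CNT and Klk1 read far higher there. In the deposited values 8553 genes of all (47.0%) were called lower in DCT/CNT and 5522 (30.4%) higher. Of the 10 genes, 7 were called lower (Scnn1a, Scnn1b, Scnn1g, Prss8, Furin, St14 and Spint1), 2 higher (Klk1 and Tmprss2), and Spint2 was not called. Leaving out genes below the median brightness kept all 10 members and 9087 other genes. Of these brighter genes 6986 were called lower and 717 higher, and of the members 8 lower and 2 higher. The split of the members thus cannot be set apart from that of genes as bright. The 12 arrays of one segment lay entirely below the 12 of the other for 19.4% of all genes in the direction of lower in DCT/CNT and for 8.43% in the direction of higher. Among the 10 genes this held for 5 lower (Scnn1b, Scnn1g, Prss8, Furin and St14) and 1 higher (Klk1). The median difference of the 10 genes, DCT/CNT minus CCD, was -0.25, beside -0.13 for all genes. The value for all genes includes the dimmer ones, so the median gene is not matched to the members in brightness.

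The scale of the arrays sets part of these directions. When the values of the brightest probe set of each gene were given equal medians on all arrays or equal distributions (quantile), or were scaled by cyclic loess, the median gene differed by 0.08, 0.01 and 0.00078 log2 units. Under all 3 of these scalings Prss8, Furin, Scnn1b and St14 were still called lower in DCT/CNT, and Klk1 and Tmprss2 still called higher. Scnn1a, Spint1 and Spint2, lower in the deposited values, read higher in DCT/CNT under each of them, and Scnn1g came to within 0.02 of 0 after quantile and loess scaling. Which scale is right was not tested.

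**Figure D2:**
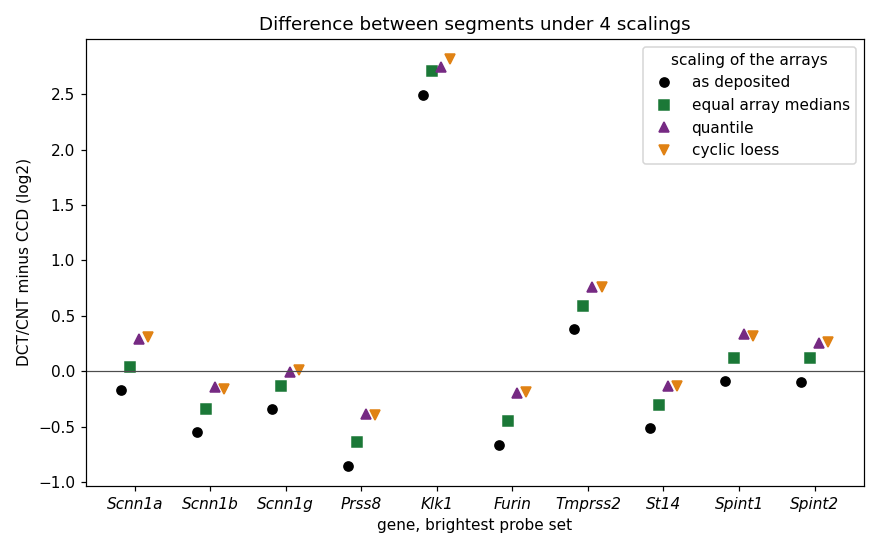
Difference DCT/CNT minus CCD (log2, vertical axis) of the brightest probe set of each gene as deposited and after 3 other scalings of the arrays. Klk1 and Tmprss2 stay above 0 and Scnn1b, Prss8, Furin and St14 below 0 in all 4, while Scnn1a, Spint1 and Spint2 lie below 0 only as deposited, and Scnn1g lies at -0.00093 after quantile and 0.02 after loess scaling.

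Scnn1a, which encodes the alpha subunit that the channel needs to reach the membrane, had its lowest values in the second part of the light phase. In DCT/CNT its 2 pools read 9.56 and 9.43 at ZT0, 9.37 and 9.39 at ZT4, 9.01 and 9.16 at ZT8, 9.38 and 9.22 at ZT12, 9.49 and 9.51 at ZT16 and 9.51 and 9.46 at ZT20. In CCD they read 9.76 and 9.42 at ZT0, 9.54 and 9.54 at ZT4, 9.32 and 9.39 at ZT8, 9.52 and 9.36 at ZT12, 9.38 and 9.76 at ZT16 and 9.76 and 9.71 at ZT20. In DCT/CNT both ZT8 pools lay below all other pools, and the 3 highest times, ZT16, ZT0 and ZT20, did not separate from one another, while in CCD the pools of ZT0 and of ZT16 lay far apart. The fitted amplitude was 0.19 (SE 0.05) with a peak at ZT 20.5 in DCT/CNT and 0.16 (SE 0.05) with a peak at ZT 20.8 in CCD, which limma did not call (adjusted p = 0.070 in DCT/CNT and 0.21 in CCD). For Scnn1a the rhythm in DCT/CNT was called after equal medians (adjusted p = 0.0496), quantile (0.0296) and loess scaling (0.0291), and with CCD ZT0 replicate 2 left out (0.049). Scnn1a averaged 9.37 ± 0.16 in DCT/CNT and 9.54 ± 0.17 in CCD (SD, n = 12 each), a difference of -0.17 (95% interval -0.28 to -0.05, limma adjusted p = 0.011) that was -0.04 (-0.16 to 0.07) relative to the median gene. It became 0.04 after equal medians, 0.30 after quantile and 0.31 after loess scaling.

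Several lists of cell type markers were lowest at ZT8, the time of the Scnn1a minimum, but their highest times differed. In DCT/CNT the mean of 3 CNT markers was lowest at ZT8, at 11.92 ± 0.0020, and highest at ZT20, at 12.36 ± 0.13 (SD of 2 pools each). The mean of 6 DCT markers there was lowest at ZT8, at 9.25 ± 0.13, and highest at ZT12, at 10.63 ± 0.40. Its pools lay far apart at ZT0 (SD 1.02) and ZT16 (SD 1.58). In CCD the DCT list was lowest at ZT8 (7.52 ± 0.16) and highest at ZT4 (8.02 ± 0.24). The CNT list in CCD was lowest at ZT0 (10.41 ± 0.04) and highest at ZT16 (10.72 ± 0.21). The mean of 7 principal cell markers was lowest at ZT8 in both segments, at 10.74 ± 0.04 in DCT/CNT and 12.19 ± 0.03 in CCD, and highest at ZT16 in DCT/CNT (10.97 ± 0.04) and at ZT20 in CCD (12.50 ± 0.08). The mean of 8 intercalated cell markers ran the other way and was highest at ZT8, at 11.27 ± 0.01 in DCT/CNT and 11.55 ± 0.04 in CCD. In DCT/CNT 2 of 3 CNT, 2 of 6 DCT, 2 of 7 principal cell and 3 of 8 intercalated cell markers were themselves called rhythmic, beside 6.57% of all genes. The part of these cell types in the time course of Scnn1a was not tested.

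Scnn1b, the beta subunit gene, was lower in DCT/CNT and flat over the day. It ranged from 10.58 to 10.99 with a median of 10.84 over the 12 DCT/CNT arrays, and from 11.25 to 11.49 with a median of 11.39 over the 12 CCD arrays, so the segments did not overlap. The difference was -0.55 (SE 0.05, limma adjusted p = 3.4e-08), or 1.46-fold less signal in DCT/CNT, and -0.42 relative to the median gene. It was -0.34 after equal medians, -0.14 after quantile and -0.15 after loess scaling, each called. The amplitudes of 0.02 (SE 0.04) in DCT/CNT and 0.05 (SE 0.04) in CCD were not called (limma adjusted p = 0.95 and 0.85).

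Scnn1g, the gamma subunit gene, whose product carries the stretch that the surface proteases release, gave a like picture with a smaller difference. It ranged from 11.46 to 11.71 with a median of 11.54 in DCT/CNT and from 11.82 to 11.98 with a median of 11.87 in CCD, without overlap. The difference was -0.34 (SE 0.04, limma adjusted p = 4.5e-07), and -0.21 relative to the median gene, but -0.00093 after quantile (adjusted p = 0.98) and 0.02 after loess scaling (adjusted p = 0.70). Its amplitudes were 0.05 in DCT/CNT and 0.03 in CCD (SE 0.03 each), neither called. The time courses of the 3 subunits did not run together: over the 12 group means, centred within each segment, r was -0.24 between Scnn1a and Scnn1b, -0.0058 between Scnn1a and Scnn1g, and -0.34 between Scnn1b and Scnn1g, which describes means from the same 24 arrays.

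Furin, the convertase that makes the first cuts, was lower in DCT/CNT. It ranged from 9.01 to 9.54 with a median of 9.28 in DCT/CNT, and from 9.86 to 10.05 with a median of 9.94 in CCD, and the segments did not overlap. The difference of -0.66 (SE 0.06, limma adjusted p = 3.0e-08) was -0.53 relative to the median gene, and -0.45, -0.19 and -0.19 after equal medians, quantile and loess scaling. The widest gap between pools stood at ZT20 in DCT/CNT, with 9.01 and 9.54. Its DCT/CNT amplitude of 0.09 (SE 0.05) was not called (adjusted p = 0.48), but became 0.16 (adjusted p = 0.045) without DCT/CNT ZT20 replicate 2, while the CCD amplitude was 0.03 (SE 0.05).

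Prss8, which encodes prostasin, a membrane-anchored serine protease, had its highest mean at ZT12 and its lowest at ZT0 in both segments. In DCT/CNT its 2 pools read 9.38 and 9.41 at ZT0, 9.41 and 9.39 at ZT4, 9.56 and 9.59 at ZT8, 9.53 and 9.92 at ZT12, 9.42 and 9.52 at ZT16 and 9.39 and 9.42 at ZT20. In CCD they read 10.15 and 10.17 at ZT0, 10.25 and 10.29 at ZT4, 10.42 and 10.50 at ZT8, 10.57 and 10.59 at ZT12, 10.26 and 10.43 at ZT16 and 10.25 and 10.26 at ZT20. In CCD both ZT12 pools lay above all others and both ZT0 pools below all others, 1.34-fold apart in their means, whereas in DCT/CNT only ZT8 separated from the next time below it and the 2 pools of ZT12 differed by more than the times around them. The fitted peaks were at ZT 11.3 in DCT/CNT and ZT 11.2 in CCD, with amplitudes of 0.15 (SE 0.04, limma adjusted p = 0.075) and 0.19 (SE 0.04, adjusted p = 0.043), and the difference in rhythm was not called (adjusted p = 0.95). The CCD call lies close to the threshold. Leaving out 1 array at a time kept it in 8 of 24 fits, the adjusted p reaching 0.14, and it was kept in 0 of 6 omissions of 1 time, with adjusted p from 0.055 to 0.28. The arrays whose omission ended it were both CCD pools of ZT0, ZT4, ZT8, ZT12 and ZT20, CCD ZT16 replicate 2, both DCT/CNT pools of ZT4, and DCT/CNT ZT0 replicate 1, ZT8 replicate 2 and ZT16 replicate 2. It was also lost with all probe sets tested (adjusted p = 0.059) and in the F test over group means, which fits no curve (0.34). In DCT/CNT the rhythm was called after quantile (adjusted p = 0.036) and loess scaling (0.038).

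By the brightest probe sets, Prss8 had the widest gap between segments among the genes lower in DCT/CNT. It averaged 9.50 ± 0.15 in DCT/CNT and 10.34 ± 0.15 in CCD (SD, n = 12 each), and the highest DCT/CNT array, at 9.92, lay below the lowest CCD array, at 10.15. The difference was -0.85 (95% interval -0.94 to -0.75, limma adjusted p = 1.5e-10), 1.80-fold less signal in DCT/CNT and 1.65-fold less relative to the median gene. It narrowed to -0.64 after equal medians, -0.38 after quantile and -0.39 after loess scaling and was called each time.

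St14, the matriptase gene, was lower in DCT/CNT with no rhythm in either segment. It ranged from 10.96 to 11.26 with a median of 11.11 in DCT/CNT, and from 11.54 to 11.69 with a median of 11.60 in CCD, without overlap. The difference was -0.51 (SE 0.04, limma adjusted p = 6.7e-09), -0.39 relative to the median gene and -0.13 after either quantile or loess scaling, still called. Its amplitudes, 0.0067 in DCT/CNT and 0.02 in CCD (SE 0.04 each), were the smallest among the 10 genes in each segment.

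Tmprss2, a transmembrane serine protease gene, gave opposite answers by probe set in the deposited values. Its brightest probe set ranged from 11.22 to 11.76 with a median of 11.61 in DCT/CNT and from 10.86 to 11.36 with a median of 11.24 in CCD, and the segments overlapped between 11.22 and 11.36. That difference was 0.38 (SE 0.06, limma adjusted p = 4.4e-05), higher in DCT/CNT. A second probe set read lower in DCT/CNT, by -0.33 without overlap (10.73 to 10.97 in DCT/CNT, 11.04 to 11.31 in CCD), another lower by -0.14 (adjusted p = 0.0064), and a dim one did not pass the test (-0.05, adjusted p = 0.80). The mean of the 4 probe sets differed by -0.04 (adjusted p = 0.58), so no direction holds for the gene as a whole. The fitted amplitudes of the brightest probe set, 0.07 in DCT/CNT and 0.11 in CCD (SE 0.06 each), were not called.

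**Figure D3:**
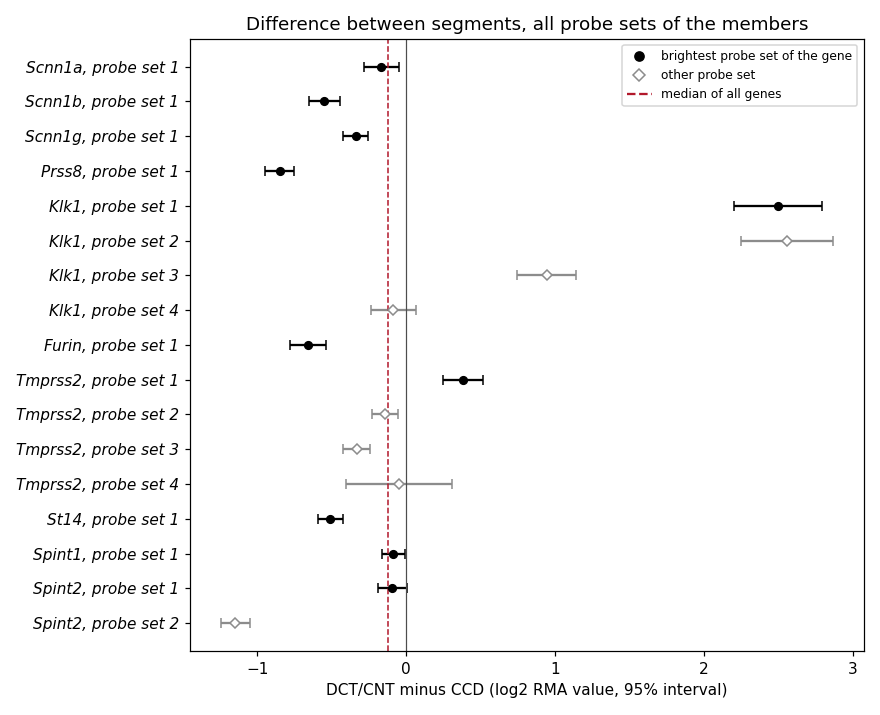
Difference DCT/CNT minus CCD (log2 RMA value, horizontal axis) with its 95% interval for all 17 probe sets, filled for the brightest of each gene and open for the others, with the median of all genes at -0.13 as a dashed line. The first 2 probe sets of Klk1 lie near 2.5, and the probe sets of Tmprss2 and of Spint2 disagree.

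Klk1, the gene of tissue kallikrein, a secreted serine protease made by the connecting tubule, was the one gene of the 10 that lay without overlap higher in DCT/CNT. In DCT/CNT it ranged from 13.43 to 13.61 with a median of 13.52, brighter than 99.9% of the probe sets on those arrays. In CCD its pools read 11.70 and 10.44 at ZT0, 10.78 and 11.40 at ZT4, 10.65 and 10.78 at ZT8, 11.07 and 10.03 at ZT12, 10.73 and 11.22 at ZT16 and 11.78 and 11.63 at ZT20. The difference was 2.50 (95% interval 2.20 to 2.79, limma adjusted p = 2.8e-10), a 5.64-fold higher signal as measured. Under the other scalings the log2 difference was 2.71 to 2.81. The brightest probe set on any DCT/CNT array reached 13.95 to 14.14, so the signal of Klk1 there stands near the top of the scale. Whether it is compressed there was not tested, so the fold and the spread of the DCT/CNT pools may both be understated. A second Klk1 probe set gave 2.56, another 0.94 (adjusted p = 2.1e-07), and the dimmest was not called (-0.09, adjusted p = 0.29).

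The upstream sequence of Klk1 is shown because it is the member that separates the segments most and the one with the most hits in the motif search. The 250 bases before its start were taken from RefSeq on build GRCm38.p6, chr7:44225110-44225359, plus strand, and capitals mark matches to the nuclear receptor half-site AGGTCA or its reverse complement.
Klk1: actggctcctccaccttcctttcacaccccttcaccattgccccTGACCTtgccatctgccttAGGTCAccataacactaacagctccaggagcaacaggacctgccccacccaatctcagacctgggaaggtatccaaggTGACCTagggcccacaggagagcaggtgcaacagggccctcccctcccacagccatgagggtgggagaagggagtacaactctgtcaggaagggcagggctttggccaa
The 3 half-sites began 206, 187 and 109 bases before the start, and the middle one lay on the plus strand. Windows of 7 of the 10 genes were in the table, 8 windows in all because Furin had 2. AGGTCA on either strand was found in those of Klk1 and Scnn1b, and in 14.0% of all 32851 windows. The E-box CACGTG, the element bound by clock activators (6.0% of all windows), and the steroid receptor half-site AGAACA (16.1%) were found in 0 of the 8 windows. A match describes letters and not binding.

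The 12 CCD arrays differed widely in Klk1. The SD between the pools of a group was 0.52 in CCD, against 0.16 for the median gene, and 0.05 in DCT/CNT, against 0.19 for the median gene. It was 0.89 between the pools of ZT0 and 0.73 between those of ZT12, and ZT20 was the one time whose pools lay above those of the next time in the order. The CCD amplitude of 0.44 (SE 0.13, peak at ZT 21.6) was not called (limma adjusted p = 0.18). Without CCD ZT0 replicate 2 it became 0.62 (adjusted p = 0.0065), and without ZT0 in both segments 0.61 (adjusted p = 0.049).

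Markers of the neighbouring segment were read beside this scatter. Over the 12 CCD arrays the DCT marker list ranged from 7.03 to 8.32 and the CNT list from 10.18 to 10.87. The level of Klk1 correlated with the DCT list at r = 0.52 (Spearman rho 0.59; permutation p = 0.081 and 0.049, adjusted to 0.38 and 0.23 over 8 relations), and at r = 0.60 without the 2 arrays farthest from the list's median. With the CNT list r was 0.31 (rho 0.41; permutation p = 0.33 and 0.19, adjusted to 0.47 and 0.36), or 0.21 without the 2 farthest. With the thick ascending limb list r was 0.50 (rho 0.57; permutation p = 0.096 and 0.057, adjusted to 0.38 and 0.23), or 0.52 without the 2 farthest, and with the proximal tubule list 0.43 (rho 0.38; permutation p = 0.16 and 0.22, adjusted to 0.42 and 0.36), or 0.47. No relation passed the correction, and the part of these cells in the scatter of Klk1 was not tested further.

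The Klk1b genes, close copies of Klk1 in the same cluster of the mouse genome, were measured for 8 of the 13 genes listed. All 8 were called higher in DCT/CNT under each of the 4 scalings, beside 30.4% of all genes as deposited. That share is larger among dim genes: 5522 genes were called higher, but 717 without genes below the median brightness. Their median difference was 1.81 as deposited, a value that includes dim genes. Klk1b16, with the smallest p, averaged 5.63 ± 0.38 in DCT/CNT and 2.97 ± 0.12 in CCD (SD, n = 12 each), and Klk1b1 averaged 5.46 ± 0.23 in DCT/CNT and 3.33 ± 0.29 in CCD. Both were dim: on average 7.58% of probe sets lay below Klk1b16 and 11.9% below Klk1b1 on the CCD arrays, near the floor of the scale, so the size of their differences is uncertain. Klk1b24 (59.3% of probe sets below it in DCT/CNT and 32.0% in CCD) was higher by 1.98 and Klk1b8 by 1.65. None was rhythmic in either segment. Because these genes share long stretches of sequence with Klk1, their probe sets may read Klk1 transcripts, and which copy gave the signal is uncertain.

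Spint1 encodes HAI-1, a Kunitz-type inhibitor of matriptase and prostasin, and was the member with the smallest adjusted p for rhythm in each segment. In DCT/CNT its 2 pools read 10.62 and 10.70 at ZT0, 10.72 and 10.79 at ZT4, 10.88 and 10.88 at ZT8, 11.10 and 11.05 at ZT12, 10.84 and 10.90 at ZT16 and 10.64 and 10.74 at ZT20. In CCD they read 10.81 and 10.82 at ZT0, 10.85 and 10.92 at ZT4, 10.98 and 11.06 at ZT8, 11.10 and 11.05 at ZT12, 10.92 and 10.88 at ZT16 and 10.76 and 10.75 at ZT20. The values climbed from lights on to lights off and came down through the dark phase in both segments. In DCT/CNT both ZT12 pools lay above all others, while ZT8 and ZT16 did not separate, nor did ZT4, ZT20 and ZT0 in turn. In CCD both ZT20 pools lay below all others, while ZT12 and ZT8 did not separate, nor did ZT16 and ZT4.

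The amplitude of Spint1 was 0.19 (SE 0.03, limma adjusted p = 0.0034) with a peak at ZT 11.6 in DCT/CNT, and 0.15 (SE 0.03, adjusted p = 0.031) with a peak at ZT 10.1 in CCD. From trough to peak this was a 1.30-fold swing in DCT/CNT and a 1.23-fold swing in CCD, and the difference in rhythm was not called (adjusted p = 0.77). In DCT/CNT the call was kept in 24 of 24 omissions of 1 array and in 5 of 6 omissions of 1 time, and was lost without ZT12 (adjusted p = 0.11), in the F test over group means (0.051) and with the segment fitted alone (0.087). In CCD it was kept in 17 of 24 omissions of 1 array and in 0 of 6 omissions of 1 time (adjusted p from 0.085 to 0.24), and was also lost after equal medians (0.057), in the F test (0.30) and with the segment fitted alone (0.059). The arrays whose omission ended the CCD call, with adjusted p up to 0.096, were both CCD pools of ZT0, ZT12 and ZT20 and CCD ZT8 replicate 2.

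Proximal tubule signal stood beside this rhythm at one time point. The mean of the 14 proximal tubule markers was highest in DCT/CNT at ZT12, at 8.79 ± 0.03, and lowest at ZT8, at 7.50 ± 0.0023 (SD of 2 pools). In CCD the list was also highest at ZT12, at 8.62 ± 0.73, and lowest at ZT4, at 7.90 ± 0.41, with pools far apart. Over the 12 DCT/CNT arrays its correlation was r = 0.36 with Spint1 (rho 0.40; permutation p = 0.25 and 0.20, adjusted to 0.47 and 0.36 over the same 8 relations) and 0.32 with Prss8 (rho 0.20; permutation p = 0.35 and 0.54, adjusted to 0.47 and 0.67). The 2 arrays farthest from the list's median were both pools of ZT12, the time at which both genes had their highest mean, and without them r was -0.21 and -0.25, values that leave out the maximum of the rhythm itself. Over the 12 CCD arrays r was 0.06 with Spint1 (rho 0.03; permutation p = 0.84 and 0.92, adjusted to 0.84 and 0.92) and 0.25 with Prss8 (rho 0.17; permutation p = 0.43 and 0.59, adjusted to 0.49 and 0.67), and without the 2 farthest 0.0013 and 0.27. With the proximal tubule and thick ascending limb lists as covariates the DCT/CNT rhythm of Spint1 stayed called, and the CCD rhythms of Spint1 (adjusted p = 0.087) and Prss8 (0.068) did not.

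The region before the start of Spint1 is shown as that of the member called rhythmic in both segments. It lies at chr2:119237110-119237359 on the plus strand of GRCm38.p6, again from RefSeq, and holds none of the 3 motifs, so no base is in capitals.
Spint1: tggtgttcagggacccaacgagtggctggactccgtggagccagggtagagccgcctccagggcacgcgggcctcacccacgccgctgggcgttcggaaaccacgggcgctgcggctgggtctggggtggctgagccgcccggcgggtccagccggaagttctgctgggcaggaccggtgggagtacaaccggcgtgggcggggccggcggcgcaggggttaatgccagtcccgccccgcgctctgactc
Its GC content was 72.8% with 26 CpG pairs, and that of the Klk1 region was 58.8% with 0 CpG pairs.

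Between the segments Spint1 was close to level. It averaged 10.82 ± 0.15 in DCT/CNT and 10.91 ± 0.12 in CCD (SD, n = 12 each) and the arrays overlapped. The difference was -0.09 (95% interval -0.16 to -0.02, limma adjusted p = 0.027) as deposited, 0.04 (-0.03 to 0.11) relative to the median gene, and 0.12, 0.34 and 0.32, called higher in DCT/CNT, after equal medians, quantile and loess scaling. The call as deposited was lost without CCD ZT4 replicate 2, CCD ZT8 replicate 2, CCD ZT12 replicate 1, DCT/CNT ZT0 replicate 1 or DCT/CNT ZT4 replicate 1 (adjusted p at most 0.054). It was also lost with ZT0, ZT4 or ZT8 left out in both segments (at most 0.10).

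Spint2, the gene of the related inhibitor HAI-2, had 2 probe sets that disagreed in size. The brighter ranged from 11.51 to 11.75 with a median of 11.61 in DCT/CNT and from 11.42 to 11.81 with a median of 11.74 in CCD. Its difference was -0.09 (95% interval -0.19 to 0.0021), which missed the threshold (limma adjusted p = 0.069), and it was called lower without CCD ZT8 replicate 2 (-0.12, adjusted p = 0.016) or DCT/CNT ZT4 replicate 2 (-0.11, adjusted p = 0.031). After equal medians, quantile and loess scaling it was called higher instead, at 0.12, 0.26 and 0.27. The second probe set read 9.61 to 9.92 in DCT/CNT and 10.81 to 11.03 in CCD, without overlap, a difference of -1.15 (adjusted p = 1.1e-11). The level of Spint2 in DCT/CNT relative to CCD thus differed by probe set, and the cause was not tested. Neither probe set was rhythmic in either segment.

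**Figure D4:**
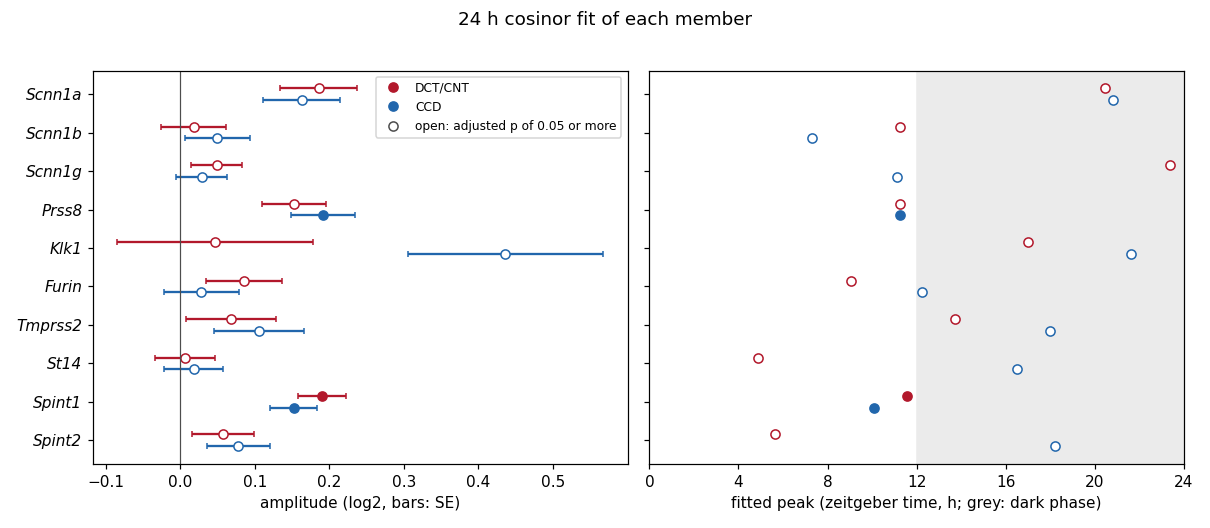
Amplitude of the fitted 24 h curve (log2, left panel, bars are SE) and fitted peak time (zeitgeber hours, right panel, dark phase in grey) for each gene in DCT/CNT (red) and CCD (blue), with filled circles for adjusted p under 0.05 in limma. The filled points are Spint1 in both segments and Prss8 in CCD, with peaks between ZT 10.1 and ZT 11.6, and Scnn1a peaks between ZT 20.5 and ZT 20.8 in open circles.

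The time courses of the members were compared over the 12 group means, centred within each segment. Prss8 and Spint1 gave the highest of the 45 pairwise correlations, at r = 0.92. Scnn1a ran the other way, with r = -0.78 to Furin, -0.67 to Spint1 and -0.65 to Prss8. Tmprss2 and Spint2 followed at r = 0.68, and the protease and its activator, Prss8 and St14, at -0.11. These values describe group means that share libraries, and carry no test.

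Among 9087 brighter genes, those most like Spint1 in this measure were Fcgbp (r = 0.95), Pacc1 (0.95) and Sphk2 (0.94), and those most like Prss8 were Ankrd12 (0.95), Ankrd11 (0.94) and Klf13 (0.94). Scnn1a was most like Timm8a1 (0.96), Dnaja3 (0.96) and Ablim1 (0.95). The other members, none of them called rhythmic, also found close partners, such as Pias2 for Scnn1b (0.91), Dcun1d2 for Scnn1g (0.93), Lsm14b for Furin (0.94), Cat for Tmprss2 (0.92), Ddx52 for St14 (0.89), Minpp1 for Spint2 (0.91) and Nrep for Klk1 (0.87). With so many candidates and 12 points, values of this size also appear for genes without a called rhythm.

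Among regulators of ENaC, Avpr2, Tsc22d3 and Usp2 were called rhythmic in both segments. Of 21 regulators measured, 8 passed the rhythm test in DCT/CNT and 4 in CCD, counts that held under each scaling, beside 6.57% and 2.47% of all genes. Their median amplitude was 0.19 in DCT/CNT and 0.12 in CCD, beside 0.13 and 0.10 for all genes. Avpr2, the vasopressin V2 receptor, had an amplitude of 0.40 (SE 0.05, peak ZT 21.5, limma adjusted p = 1.5e-04) in DCT/CNT and 0.29 (SE 0.05, peak ZT 20.1, adjusted p = 0.0064) in CCD, where the call was lost without ZT8 in both segments (0.19) and in the F test over group means (0.058). Tsc22d3, the glucocorticoid-induced leucine zipper gene, peaked at ZT 17.8 in DCT/CNT and ZT 16.9 in CCD (amplitudes 0.47 and 0.71). Usp2, a deubiquitinase gene, peaked at ZT 14.3 in DCT/CNT and ZT 13.2 in CCD (amplitudes 0.59 and 0.67). Kcnj1, the ROMK potassium channel gene, was called in DCT/CNT (0.19, peak ZT 20.5, adjusted p = 0.0076, but 0.13 without ZT8 in both segments, 0.081 in the F test and 0.097 with the segment fitted alone) and not in CCD (0.14, adjusted p = 0.093). Per1, a clock repressor, was called in CCD (amplitude 0.54, adjusted p = 0.026). Per1 in CCD lost its call without CCD ZT0 replicate 1, either CCD ZT12 pool or CCD ZT20 replicate 1 (adjusted p up to 0.079), and without ZT0, ZT12, ZT16 or ZT20 in both segments (up to 0.24), in the F test (0.15) and with the segment fitted alone (0.072). Avpr2, Kcnj1, Fxyd4 and Hsd11b2 are also in the principal cell marker list, whose mean was lowest at ZT8, and Wnk4 is also in the DCT marker list. None of the 21 differed in rhythm between the segments (smallest adjusted p = 0.42, Wnk1).

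Between the segments, 15 of the 21 regulators were called lower in DCT/CNT and 4 higher as deposited (47.0% and 30.4% of all genes), which became 9 lower and 7 higher after equal medians, 7 and 7 after quantile, and 7 and 10 after loess scaling. Of the regulators that are also cell type markers, Avpr2, Kcnj1, Fxyd4 and Hsd11b2 were called lower as deposited and Wnk4 higher. The 4 regulators with the smallest p kept direction and call in every setting tried. Fxyd4, a sodium pump regulator, differed by -2.17 (11.09 ± 0.14 in DCT/CNT and 13.27 ± 0.07 in CCD; SD, n = 12 each), Avpr2 by -1.72 and Nedd4l, the ubiquitin ligase that removes ENaC from the membrane, by -0.98, while the kinase gene Wnk1 differed by 1.21.

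Of 22 other proteases and inhibitors measured, 10 were called lower in DCT/CNT and 5 higher as deposited, and 2 were rhythmic in DCT/CNT and 1 in CCD, which is near the shares of all genes (47.0% lower, 30.4% higher, 6.57% rhythmic in DCT/CNT and 2.47% in CCD). Plau, the urokinase gene, was called in both, with an amplitude of 0.38 (SE 0.07, peak ZT 3.3, limma adjusted p = 0.0064) in DCT/CNT and 0.31 (SE 0.07, peak ZT 2.0, adjusted p = 0.046) in CCD, where the call held in 6 of 24 omissions of an array (DCT/CNT ZT8 replicate 1, both DCT/CNT pools of ZT16 and of ZT20, and CCD ZT0 replicate 1) and reached an adjusted p of 0.14 in the others. The CCD call of Plau was also lost after equal medians (0.064) and loess scaling (0.060), with all probe sets tested (0.057), in the F test (0.051), with marker covariates (0.18) and in 5 of 6 omissions of a time, all but ZT20 (up to 0.31). In DCT/CNT the call of Plau was lost without ZT16 in both segments (0.18) and with the segment fitted alone (0.068). Prss23, a serine protease gene, was called in DCT/CNT (0.28, SE 0.05, peak ZT 0.89, adjusted p = 0.011, but 0.13 without ZT0 and 0.061 without ZT4 in both segments, 0.059 in the F test and 0.096 with the segment fitted alone) and read 0.23 in CCD (adjusted p = 0.062). Prss23 was also the one that differed most between segments by its p, at -1.57 (10.04 ± 0.24 in DCT/CNT and 11.61 ± 0.19 in CCD; SD, n = 12 each), followed by Plau at -0.62, Plg at 0.86 and Adam17 at -0.59. Adam17 was not called after quantile (-0.12, adjusted p = 0.074) or loess scaling (-0.12, adjusted p = 0.053), and the split of this list was 6 lower and 9 higher after equal medians. The acid-sensing channel genes Asic1 to Asic5, the nearest relatives of the ENaC subunits, were dim and not rhythmic (0 of 5 in either segment), with 1 called lower in DCT/CNT and 3 higher as deposited, and 1 lower and 1 higher after quantile or loess scaling.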

How the data were processed

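Gene expression was measured in 24 RNA pools of microdissected mouse tubules, 2 per segment and time. The deposited table holds log2 values that the authors computed with RMA, per the submitters' processing notes. The software version, and whether both segments were normalised in one run, are not given in the sources used here. For each array 10 ng of total RNA was amplified, per the labels' protocols.

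Values were used as deposited for 45101 probe sets, which were named through the platform's probe table: 34958 named 1 symbol, 932 several and 9211 none. The brightest probe set stood for each of 18194 genes, without a filter on dim genes. A model with a mean, cosine and sine (24 h) per segment was fitted in limma 3.58.1 (R 4.3.3, 18 residual degrees of freedom), and rhythm was tested by moderated F. The segment difference was the mean of 6 DCT/CNT group means minus that of 6 CCD group means (12 residual degrees of freedom). P-values were adjusted by Benjamini-Hochberg over all genes, and limma's adjusted p under 0.05 was called. The fits were tested on simulated data. Correlations with marker lists used 100000 permutations, two-sided.

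The labels do not say whether pools of one time hold separate animals, so the spread between pools may be technical. The p-values of the segment difference and of the F test over group means rest on that spread. Those of the cosine fits also take in the departure of the time means from the curve. The number of arrays limits the precision. No batch or date is given. Genes named outside the members are the 4 with the smallest adjusted p per list and test, and the 3 most like each member. Defining segment markers and regulators shared with a marker list are also named. Members, lists and motifs were chosen with earlier results of these data known. Alternatives were other scalings, a filter on dim genes, the mean of probe sets, all probe sets, array weights, an intensity trend, marker covariates, an F test over group means, a fit of each segment alone, a replicate block, and omission of each array or time. No sequence of Scnn1a, Prss8 or St14 was used.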

Additional observations from a re-analysis of the deposited data

How the results depend on the processing

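Furin, Klk1, Prss8, Scnn1b and St14 kept the direction and call of their segment difference in all 40 settings. Reversals came from scaling: Scnn1a turned to 0.0433 (equal medians), 0.297 (quantile) and 0.312 (cyclic loess), Spint1 to 0.123, 0.337 and 0.323, Spint2 to 0.117, 0.258 and 0.268, and Scnn1g to 0.0166 (loess). Tmprss2 turned to -0.0355 with the mean of its probe sets. The cause was not tested. Members called lower in DCT/CNT, 7 as deposited, were 4 after quantile and 4 after loess scaling, and members called higher, 2 as deposited, were 4, 5 and 5 after equal medians, quantile and loess scaling and 1 with mean probe sets. Over all genes equal medians gave 7966 higher and 6044 lower, quantile 6013 and 5750, and loess 6051 and 6017. Genes called higher, 5522 as deposited, were 717 without genes below the median and 3588 with marker covariates. Without genes below the median fewer genes were tested, but genes called lower were still 6986, against 8553 as deposited. Calls of higher thus lay mostly among the dimmer genes.

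Rhythmic members in DCT/CNT, 1 as deposited, were 2 after equal medians, 3 after quantile, loess or the dim filter, and 0 with the F test over group means (Spint1 adjusted p = 0.051 in limma) or the segment fitted alone (0.087). In CCD, 2 as deposited, they were 1 after equal medians, with all probe sets tested or fitted alone, and 0 with covariates or the F test. Rhythmic genes in DCT/CNT, 1195 as deposited, were 788 with array weights, 689 with covariates, 450 with the F test and 226 fitted alone. In CCD, 449 as deposited, they were 846 with weights, 718 with an intensity trend and 117 with the F test. Genes differing in rhythm, 2 as deposited, were 1 after quantile scaling, 6 with the dim filter, and 4 with mean probe sets or the trend, and members 0 throughout.

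Omitting one array or time gave 565 to 1329 rhythmic genes and 0 to 2 members in DCT/CNT, 132 to 477 genes and 0 to 2 members in CCD, and 1 to 4 genes and 0 members differing in rhythm. It gave 6 to 8 members lower and 2 higher in DCT/CNT.

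Correlations of the deviations of same-numbered pools ranged from -0.206 to 0.173 over 66 pairs of groups, with 5 over 0.1. Between the 2 segments at the same time they ranged from -0.025 to 0.086. Whether same-numbered pools of the 2 segments share animals was not tested. With the pool number as a replicate block the members called were 7 lower, 2 higher, 1 rhythmic in DCT/CNT, 2 in CCD and 0 differing in rhythm, and the genes called rhythmic were 1139 in DCT/CNT and 403 in CCD.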
